A study of Mus musculus with 19 samples.

Results

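The 9 genes described here encode the simple-epithelium keratins Krt7, Krt8, Krt18 and Krt19 and the desmosome components Dsp, Dsc2, Dsg2, Pkp2 and Jup. They were taken by exact gene name from a table of counts with 53379 gene rows, and each name matched 1 row. All 9 passed the filter on low values and were tested, so no member was lost to it. PolyA RNA had been sequenced from 19 single B6D2F1 mouse embryos, obtained by in vitro fertilisation and cultured in KSOM medium (37 degrees C, 5% CO2). Morulae and blastocysts were collected at the same time, 96 hours after insemination, and the zona pellucida was removed.

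The embryos fell into 7 groups. Sperm and oocytes of Alyref+/- mice gave 2 morulae labelled Alyref KO, 3 morulae not labelled KO and 3 blastocysts. Those of Gabpb1+/- mice gave 3 morulae labelled Gabpb1 KO, 2 morulae not labelled KO and 3 blastocysts. A further 3 blastocysts came from wild-type (WT) parents. KO embryos had been recognised by the submitters from missing reads over the deleted region in these same libraries. The embryos of the crosses without a KO label, called Alyref cross and Gabpb1 cross embryos below, are WT or heterozygous. No blastocyst carries a KO label, and the labels do not say which embryos shared a fertilisation or a sequencing run. Since each cross came from its own fertilisations, a difference between crosses and one between batches cannot be told apart.

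Keratins form intermediate filaments as pairs of a type II chain (Krt7, Krt8) and a type I chain (Krt18, Krt19). Krt8 and Krt18 are the main pair of simple epithelia, and filaments of this kind first become abundant in the trophectoderm, the outer epithelium of the blastocyst. Desmosomes tie these filaments to the cell border: the cadherins Dsg2 and Dsc2 span the membrane, plakoglobin (Jup) and plakophilin 2 (Pkp2) form the plaque beneath them, and desmoplakin (Dsp) links the plaque to keratin. The assembly of desmosomes in the mouse embryo accompanies formation of the blastocoel.

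RefSeq promoters of build GRCm38.p6 were matched for 5 of the 9 genes (Krt7, Krt8, Krt18, Dsp and Jup), each running from 250 bases before the start site to 50 bases after it. Those of Krt7, Krt8, Krt18 and Jup are printed because these 4 genes were called together in the stage comparison described further on, and capitals mark every match to the motifs searched. They lie at chr15:101412153-101412452 on the plus strand, chr15:102004293-102004592 on the minus strand, chr15:102027966-102028265 on the plus strand and chr11:100397741-100398040 on the minus strand.
Krt7: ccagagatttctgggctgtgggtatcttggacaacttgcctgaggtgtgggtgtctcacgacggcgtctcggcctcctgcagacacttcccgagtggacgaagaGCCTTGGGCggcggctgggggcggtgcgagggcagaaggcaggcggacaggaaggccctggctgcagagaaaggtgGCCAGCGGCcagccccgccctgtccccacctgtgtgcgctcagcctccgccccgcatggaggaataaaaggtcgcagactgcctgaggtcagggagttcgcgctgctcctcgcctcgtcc
Krt8: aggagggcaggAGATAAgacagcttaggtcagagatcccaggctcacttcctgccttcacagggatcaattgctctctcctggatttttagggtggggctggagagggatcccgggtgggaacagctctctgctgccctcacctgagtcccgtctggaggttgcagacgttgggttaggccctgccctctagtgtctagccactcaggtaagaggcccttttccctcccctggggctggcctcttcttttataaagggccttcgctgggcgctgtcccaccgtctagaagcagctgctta
Krt18: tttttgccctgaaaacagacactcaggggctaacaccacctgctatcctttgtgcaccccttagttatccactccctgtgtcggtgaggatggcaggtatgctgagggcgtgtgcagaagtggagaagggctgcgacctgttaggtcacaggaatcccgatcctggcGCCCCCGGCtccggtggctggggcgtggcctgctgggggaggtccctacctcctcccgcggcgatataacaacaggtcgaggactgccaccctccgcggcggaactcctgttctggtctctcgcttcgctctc
Jup: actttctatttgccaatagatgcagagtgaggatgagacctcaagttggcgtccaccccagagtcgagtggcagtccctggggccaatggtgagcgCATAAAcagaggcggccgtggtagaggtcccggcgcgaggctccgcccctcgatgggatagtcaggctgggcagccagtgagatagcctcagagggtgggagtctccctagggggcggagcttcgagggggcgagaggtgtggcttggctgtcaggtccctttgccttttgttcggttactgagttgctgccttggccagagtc

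Short motifs were searched on both strands: GCCNNNGGC for AP-2 factors, AGATAA for GATA factors, TTTATG for CDX factors, GGAATG for TEAD factors, CCGGAAG for ETS factors and TGANTCA for AP-1. No capitals of different motifs overlap in the 4 sequences. AP-2 letters began at -146 and -70 from the start site in Krt7 and at -83 in Krt18, and the Dsp promoter held them at -75. They occurred in 16.6% of the 32851 promoters in the table. GATA letters began at -239 in Krt8 and occur in 11.2% of promoters, and CDX letters were found at -154 on the opposite strand of Jup (read as cataaa in the printed strand) and occur in 11.9%. None of the 5 promoters held the TEAD, ETS or AP-1 letters, which occur in 14.7%, 8.86% and 7.81% of promoters. The GC content of the 5 ran from 58% (Krt8) to 73% (Dsp), above the median of 52.7% over all promoters. Krt8 and Krt18 are neighbours on chromosome 15 with start sites 23874 bases apart on opposite strands, and Krt7 lies on the same chromosome. RefSeq places the start of Krt7 downstream of the gene start in the count table, so its window lies inside the gene as counted. A match of letters is a description of the sequence and was not tested as a binding site.

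Libraries held between 7.49 M and 31.5 M gene counts (M, mega), and ERCC spike-in rows took 0.501% to 1.95% of all counts. Alyref, an mRNA export adaptor, was at 53.1 ± 7.57 CPM (counts per M gene counts, TMM-scaled; SD, n = 2) in Alyref KO morulae and at 221 ± 65.6 CPM (SD, n = 3) in Alyref cross morulae. Gabpb1, which encodes the beta chain of the GABP transcription factor, was not lower on average in the embryos named for its loss: 163 ± 91.2 CPM (SD, n = 3) against 88.6 ± 7.46 CPM (SD, n = 2) in Gabpb1 cross morulae. Embryos 1, 2 and 3 of the former were at 78.2, 259 and 151 CPM and the latter at 93.8 and 83.3 CPM, so embryo 1 lay below both. The embryos named for its loss are therefore called morulae labelled Gabpb1 KO throughout. Summed CPM of 10 trophectoderm markers ran from 218 to 539 in morulae and from 498 to 886 in blastocysts. Summed markers of cumulus cells (7 genes), sperm (3 genes) and fibroblasts (4 genes) stayed at or below 2.74 CPM in every embryo, and 1 cumulus and 1 sperm marker were at 0 in all 19. Summed blood markers reached 128 CPM in embryo 2 labelled Gabpb1 KO and 56.3 and 19.3 CPM in the Gabpb1 cross morulae, nearly all from Hba-a1, a haemoglobin gene, with the second haemoglobin gene Hbb-bs at 1 count or 0, and were at most 4.97 CPM elsewhere. Markers of primitive endoderm (6 genes) summed to 124 to 275 CPM, of oocytes (5 genes) to 12.0 to 186 CPM and of epidermis (7 genes) to 1.76 to 17.0 CPM. Most of the oocyte sum was Ooep, with group means from 9.94 to 148 CPM, while those of Zp3 were at most 4.30 CPM. Within groups, log2 CPM agreed least between Alyref cross morulae 2 and 3 (Pearson r 0.91 across genes, which are not independent replicates). In libraries of whole embryos, fewer cells of a type and less RNA per cell cannot be told apart.

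Krt8 and Krt18 stood far above the other members. Per kilobase of merged exon length, the median level of Krt18 over the 9 blastocysts was 2095 CPM per kb and that of Krt8 was 948 CPM per kb. The other 7 members had blastocyst medians between 1.66 CPM per kb for Krt19 and 12.6 CPM per kb for Dsg2. In the same blastocysts Krt18 ranked between 9 and 26 among all genes in CPM, and Krt8 between 30 and 75.

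Krt8 (ENSMUSG00000049382.9, GRCm38 chr15:101996711-102004342, minus strand) was at 171, 184 and 734 CPM in Alyref cross morulae 1, 2 and 3 and at 2084, 1973 and 1367 CPM in Alyref cross blastocysts. It was at 1567 and 961 CPM in Gabpb1 cross morulae and at 1450, 1211 and 1935 CPM in Gabpb1 cross blastocysts. WT blastocysts had 1301, 1909 and 1712 CPM. The 9 blastocysts thus lay within a narrow band, the Gabpb1 cross morulae lay in or just under it, and the Alyref cross morulae lay below it, with morula 3 about 4.31 times as high as morula 1. Krt8 was at 622 and 260 CPM in Alyref KO morulae and at 766, 145 and 408 CPM in morulae labelled Gabpb1 KO. In the order of group means, only the gap between the Gabpb1 cross morulae (1264 ± 429 CPM, SD, n = 2) and the Alyref KO morulae (441 ± 256 CPM, SD, n = 2) separated neighbouring groups without overlap.

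Krt18 (ENSMUSG00000023043.6, chr15:102028216-102032026, plus strand), the type I partner of Krt8, was at 237, 254 and 907 CPM in Alyref cross morulae and at 4115, 3264 and 2328 CPM in Alyref cross blastocysts. It was at 2069 and 1336 CPM in Gabpb1 cross morulae and at 2932, 2609 and 2579 CPM in Gabpb1 cross blastocysts. WT blastocysts had 2086, 3223 and 2965 CPM. Here the Gabpb1 cross morulae lay under every blastocyst of their cross, and morula 3 was again the highest of the Alyref cross morulae. Alyref KO morulae had 605 and 201 CPM, and morulae labelled Gabpb1 KO had 1353, 72.1 and 375 CPM. For Krt18 the spread among the latter was the widest of any group, 18.8-fold between embryos 1 and 2.

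Krt7 (ENSMUSG00000023039.16, chr15:101411043-101430313, plus strand), the second type II chain, was at 1.14, 0.422 and 7.25 CPM in Alyref cross morulae and at 77.5, 83.6 and 54.5 CPM in Alyref cross blastocysts. It was at 37.4 and 43.2 CPM in Gabpb1 cross morulae and at 12.3, 36.9 and 43.5 CPM in Gabpb1 cross blastocysts. WT blastocysts had 20.2, 87.4 and 75.0 CPM. Morulae and blastocysts were far apart in the Alyref cross and overlapped in the Gabpb1 cross. Alyref KO morulae had 17.6 and 8.80 CPM, and morulae labelled Gabpb1 KO had 7.49, 10.2 and 5.11 CPM. Each neighbouring pair in the order of Krt7 group means overlapped.

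Krt19 (ENSMUSG00000020911.14, chr11:100140810-100148665, minus strand), a type I chain, followed another order. It was at 42.1 and 28.3 CPM in Gabpb1 cross morulae, above all other embryos. Gabpb1 cross blastocysts had 0.659, 11.4 and 22.5 CPM, and the lowest value of all, 0.172 CPM, was in embryo 1 labelled Gabpb1 KO. Across the remaining groups Krt19 ran from 0.792 to 10.05 CPM, and Krt19 was not called by edgeR in any comparison described below.

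**Figure D1:**
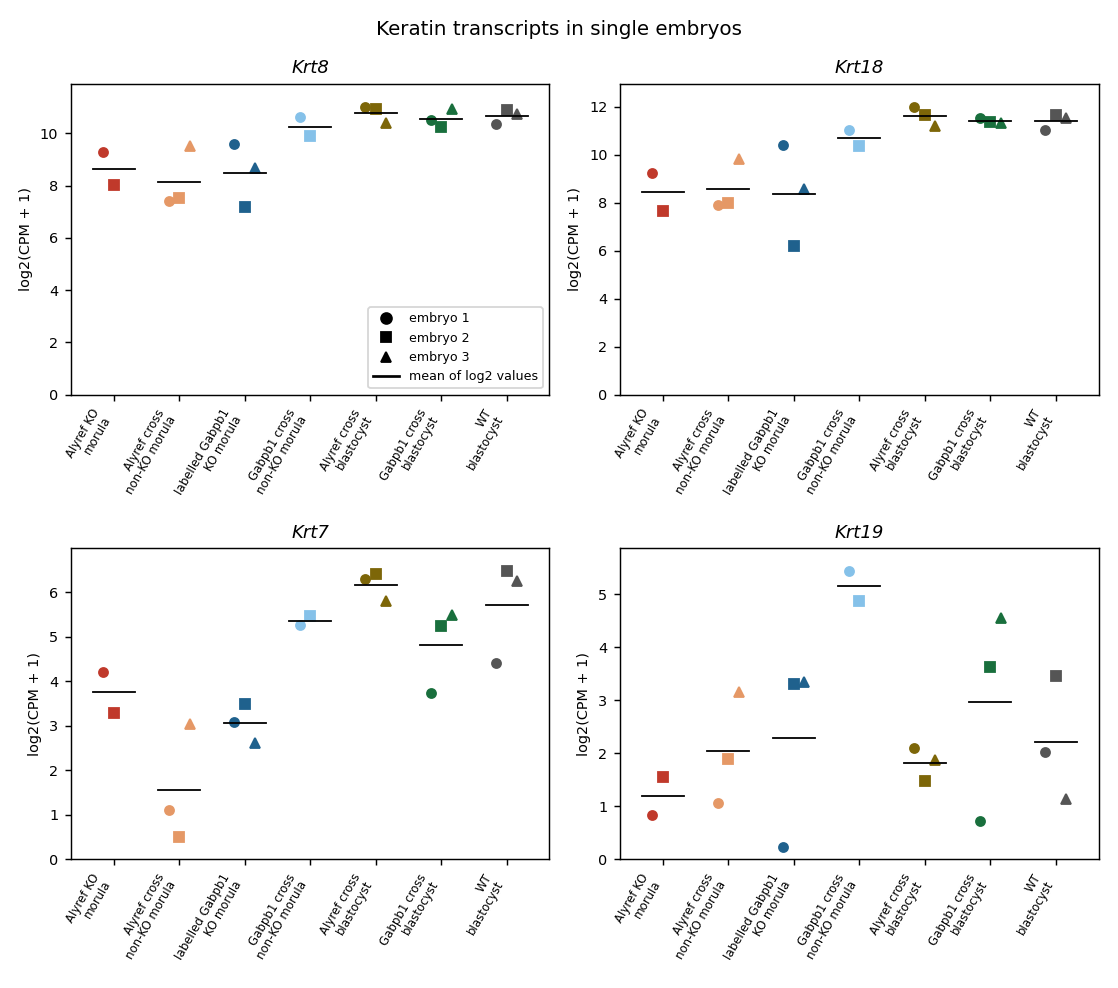
Levels of the 4 keratin genes as log2(CPM + 1) in each of the 19 embryos, by group, with the mean of the log2 values as a line. Krt8, Krt18 and Krt7 are lower in each Alyref cross morula than in each of the 9 blastocysts, while Krt19 is highest in the 2 Gabpb1 cross morulae (42.1 and 28.3 CPM).

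Among the desmosomal cadherins, Dsc2 (ENSMUSG00000024331.11, chr18:20030633-20059554, minus strand) had the sharpest contrast between embryos. It had 2, 0 and 499 counts in Alyref cross morulae 1, 2 and 3 and 1 count in embryo 2 labelled Gabpb1 KO. Of these, the counts of 0 to 2 are under the 3 counts that an observed 0 still allows (counting error only). Every blastocyst had between 40.3 and 70.0 CPM, the Gabpb1 cross morulae had 70.5 and 49.6 CPM, and the Alyref KO morulae had 21.4 and 17.2 CPM. Embryos 1 and 3 labelled Gabpb1 KO were at 32.3 and 3.97 CPM. Dsc2 thus ran from none to the blastocyst level among morulae and stayed within 1.74-fold in each blastocyst group.

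Dsg2 (ENSMUSG00000044393.15, chr18:20558074-20604521, plus strand) was at 16.8, 8.69 and 71.1 CPM in Alyref cross morulae and between 98.5 and 118 CPM in Alyref cross blastocysts. WT blastocysts ranged from 96.2 to 135 CPM and Gabpb1 cross blastocysts from 52.6 to 105 CPM. The 7 other morulae ranged from 7.22 to 63.2 CPM, so 3 of the 10 morulae lay above the lowest blastocyst.

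The plaque gene Jup (ENSMUSG00000001552.14, chr11:100368958-100397763, minus strand) links the cadherin tails to the rest of the plaque. It was at 13.4, 15.5 and 32.4 CPM in Alyref cross morulae and at 46.9, 47.3 and 40.6 CPM in Alyref cross blastocysts. Alyref KO morulae, at 50.8 and 39.7 CPM, lay at the blastocyst level and above all 3 Alyref cross morulae. Morulae labelled Gabpb1 KO had 35.3, 29.2 and 39.9 CPM, and Gabpb1 cross morulae had 37.4 and 81.2 CPM. All 9 blastocysts ranged from 30.1 to 54.6 CPM.

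Pkp2 (ENSMUSG00000041957.15, chr16:16213318-16272712, plus strand), the second plaque gene, was at 10.3, 19.4 and 12.9 CPM in Alyref cross morulae and at 46.6, 38.9 and 36.8 CPM in Alyref cross blastocysts. It was at 24.9 and 21.8 CPM in Gabpb1 cross morulae and at 34.9, 42.6 and 48.1 CPM in Gabpb1 cross blastocysts. Morulae lay below blastocysts in both crosses, and here morula 3 was not the highest of the Alyref cross morulae. Alyref KO morulae had 13.3 and 9.80 CPM, morulae labelled Gabpb1 KO had 40.3, 20.4 and 16.8 CPM, and WT blastocysts ranged from 29.7 to 56.3 CPM.

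Dsp (ENSMUSG00000054889.10, chr13:38151294-38198577, plus strand), the linker to keratin, was at 19.9, 19.99 and 77.7 CPM in Alyref cross morulae and between 84.0 and 98.0 CPM in Alyref cross blastocysts. The other morulae ranged from 34.1 to 94.4 CPM and the other blastocysts from 38.4 to 129 CPM. No pair of neighbours in the order of Dsp group means was free of overlap.

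**Figure D2:**
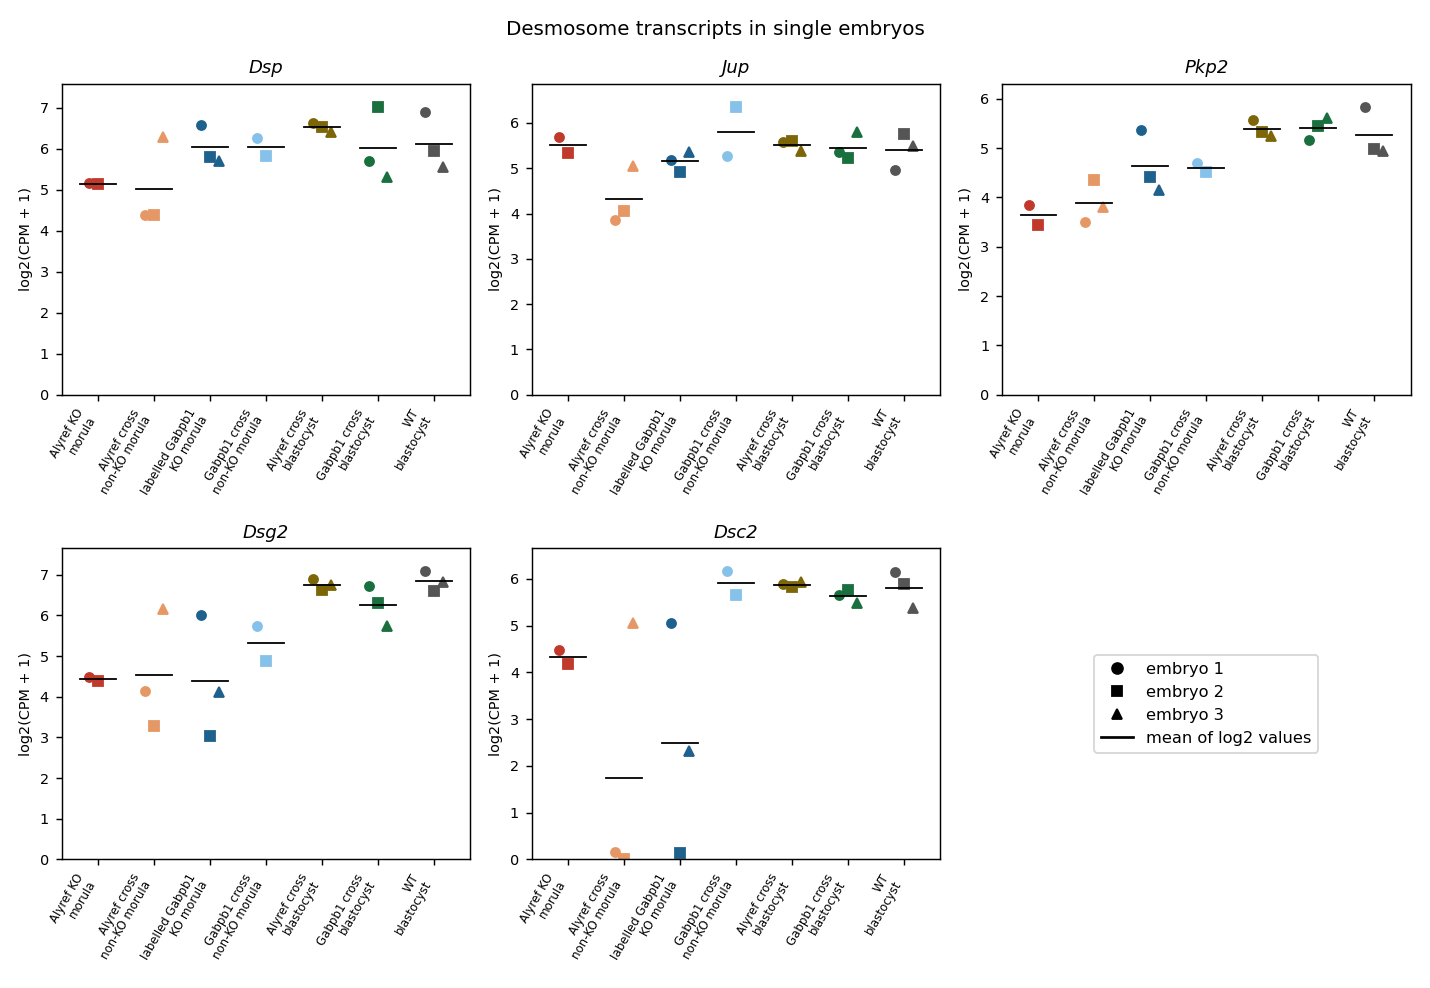
Levels of the 5 desmosome genes as log2(CPM + 1) in each of the 19 embryos, by group, with the mean of the log2 values as a line. Dsc2 is at or near 0 in Alyref cross morulae 1 and 2 and in embryo 2 labelled Gabpb1 KO (2, 0 and 1 counts), whereas Jup stays between 13.4 and 81.2 CPM throughout.

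In the Alyref cross, blastocysts had more transcript of 3 keratins and of both plaque genes than morulae. A gene is called here when its p from edgeR's quasi-likelihood test, adjusted by the Benjamini-Hochberg method over the 18410 genes tested, was under 0.05. Called higher were 5 of the 9 members, against 5.62% of all genes tested, and the members' median log2 fold change was 1.74 beside -0.04 over all genes. Among them Krt7 had the largest change and rose by 4.60 on the log2 scale (SE 0.83, adjusted p 0.0078). Krt18 rose by 2.80 (SE 0.77, adjusted p 0.0297) and Krt8 by 2.32 (SE 0.60, adjusted p 0.0236) on the log2 scale. Pkp2 rose by 1.53 (SE 0.35, adjusted p 0.0151) and Jup by 1.14 (SE 0.35, adjusted p 0.0424). The log2 differences of Dsc2 (2.42, SE 1.41), Dsg2 (1.74, SE 0.70) and Dsp (1.22, SE 0.54) did not pass, with adjusted p of 0.256, 0.105 and 0.135. Krt19 was at a log2 difference of -0.59 (SE 1.12, adjusted p 0.750). In CPM, all 3 blastocysts lay above all 3 morulae for each member but Krt19, 8 of 9 where 19.6% of all genes did so.

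The number of members called changed with each embryo left out, and so did the share of all genes called either way, which was 13% with all 6 embryos. Without morula 3, 8 members were called higher (all but Krt19), Krt7 at 6.45 and Krt8 at 3.35 on the log2 scale, and 24.8% of all genes were called. Removal of another embryo lowered the count: it was 1 without morula 1, blastocyst 1 or blastocyst 2 (4.69%, 2.3% and 2.4% of all genes), 2 without morula 2 (1.88%), and 4 without blastocyst 3 (6%). Krt7 was called in all 6 of these fits, with adjusted p between 0.00045 and 0.0394. Among these fits Jup was called only without morula 3, and Pkp2 was lost without morula 1 or blastocyst 1 or 2 (adjusted p up to 0.0629). With only the compared groups in the fit 0 members were called (adjusted p of Krt7 0.0587) among 0.13% of all genes, with ERCC scaling 1 among 1.91%, and by DESeq2 6 among 19.9%. With no FPKM filter 4 were called among 5.91%, and Jup lost its call (adjusted p 0.0606). Under ERCC scaling, which moved the median log2 fold change of all genes to -0.34, the 9 members kept their directions. In summed trophectoderm markers morula 3 was at 357 CPM beside 343 and 387 CPM in morulae 1 and 2. These sums include Hand1 and Tfap2c, with means of 58.2 and 89.0 CPM in the 3 morulae, which were both called lower in the blastocysts. Like sums therefore do not show a like trophectoderm state. Morula 3 had the highest sum of 8 epiblast and inner cell mass markers, 831 CPM beside 732 and 639 CPM. Of the 10 trophectoderm markers, 8 were higher in these blastocysts (median log2 difference 1.78, 9 of the 10 at an unadjusted p under 0.05). Called were Fgfr2 as higher, where 5.62% of all genes were, and Hand1 and Tfap2c as lower, where 7.43% were, and of the 8 epiblast and inner cell mass markers 7 were lower and 3 called lower (Nanog, Klf2 and Pou5f1). The part of these markers in the keratin levels was not tested.

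**Figure D3:**
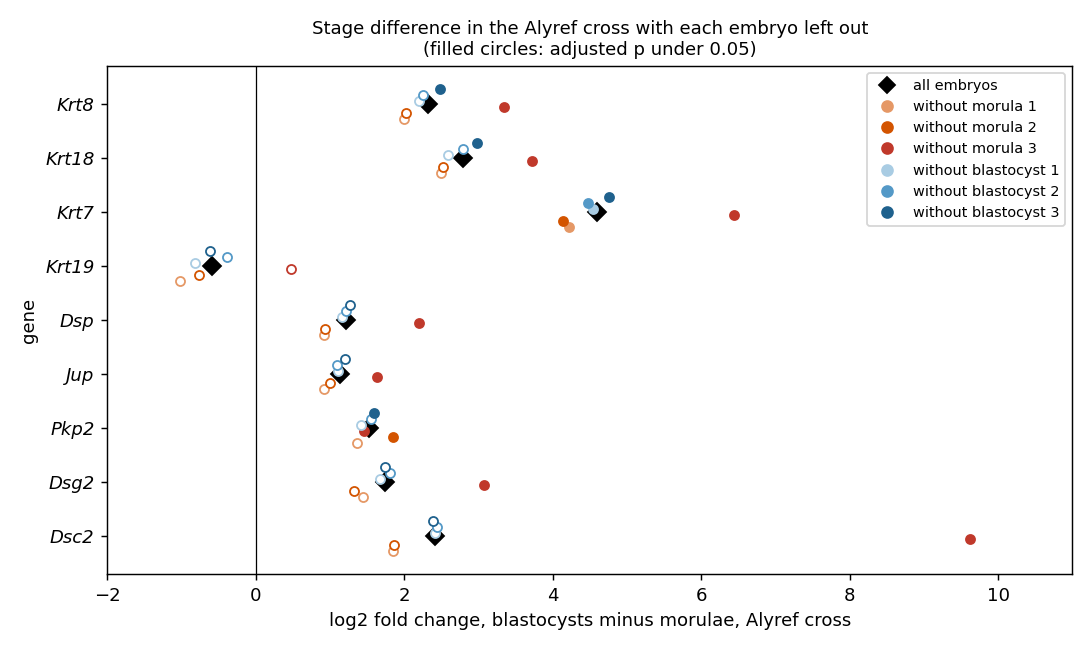
Log2 fold change of each member between blastocysts and morulae of the Alyref cross with all 6 embryos (diamonds) and with each embryo left out in turn (circles, filled where the adjusted p was under 0.05). Without morula 3 the fold changes of all members but Pkp2 moved upward, and the far right value of Dsc2 rests on morulae with 2 and 0 counts, so it is a fitted value and no bound.

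In the Gabpb1 cross, the same stage comparison called 0 members by edgeR and 0 by DESeq2, among 0% and 0.261% of all genes. An unadjusted p under 0.05 was found for 1 member, Pkp2, at a log2 difference of 0.84 (SE 0.39, adjusted p 0.736). The log2 differences of Krt18 (0.67, SE 0.82), Krt8 (0.28, SE 0.64) and Krt7 (-0.38, SE 0.79) had adjusted p of 0.934, 0.974 and 0.969. ERCC scaling moved the all-gene median to -0.86, and with it the differences of Pkp2, Krt18 and Krt8 turned negative (-0.090, -0.20 and -0.65). Without Gabpb1 cross morula 2 that of Krt8 was -0.03. The groups did not overlap in CPM for 3 members (Krt18 and Pkp2 higher in blastocysts, Krt19 lower), where 23.1% of all genes showed no overlap either way. The members' median log2 difference was 0.16 beside 0.02 over all genes.

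Over both crosses, the mean stage difference was called for 1 member, Pkp2, against 1.7% of all genes called higher. Its mean log2 fold change was 1.19 (SE 0.26, adjusted p 0.0270). The call was lost without any 1 of Alyref cross morula 1, either Gabpb1 cross morula, Alyref cross blastocysts 1 and 2 or Gabpb1 cross blastocysts 1 and 3 (highest adjusted p 0.127), and with ERCC scaling. Krt7 lay just outside the threshold at 2.11 (SE 0.58, adjusted p 0.0504), and without Alyref cross morula 3 the count rose to 7 members, among 15.9% of all genes called either way. DESeq2 called 5 among 12.1%, and edgeR with all embryos called 4.36% of all genes either way.

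The stage difference of the Gabpb1 cross minus that of the Alyref cross was called for 0 members by edgeR, with 3 at an unadjusted p under 0.05 (Krt7, Krt8 and Jup), and for 1 by DESeq2 (Krt7). Among all genes 0.00543% were called by edgeR and 1.41% by DESeq2. The fitted differences were -4.98 for Krt7 (SE 1.10, adjusted p 0.164), -2.04 for Krt8 (SE 0.85, adjusted p 0.326) and -1.58 for Jup (SE 0.51, adjusted p 0.238) on the log2 scale. Without Alyref cross morula 3, 4 members were called (Krt7, Krt8, Dsc2 and Jup) among 3.81% of all genes.

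The morulae of the crosses were compared directly. Krt7 was higher in Gabpb1 cross than in Alyref cross morulae, by 3.76 on the log2 scale (SE 0.84, adjusted p 0.0392). It was the 1 member called, against 1.18% of all genes called higher, and the members' median log2 difference was 1.80 beside -0.03 over all genes. Jup was at 1.54 (SE 0.38, adjusted p 0.0504), Krt19 at 3.17 (SE 1.23, adjusted p 0.155), Krt18 at 1.87 (SE 0.80, adjusted p 0.184) and Krt8 at 1.80 (SE 0.63, adjusted p 0.123), all on the log2 scale. In CPM, 7 members lay higher in both Gabpb1 cross morulae than in all Alyref cross morulae (all but Dsp and Dsg2), where 17.9% of all genes did. Krt7 kept its call only without Alyref cross morula 3, when 6 members were called among 13.2% of all genes, against 1.86% called either way with all embryos. Without any 1 of the other 4 embryos its call was lost, with adjusted p up to 0.209, and without Gabpb1 cross morula 1 the 1 member called was Jup. The Gabpb1 cross morulae also held 56.3 and 19.3 CPM of blood markers against at most 3.80 CPM in the Alyref cross morulae. Their 8 epiblast and inner cell mass markers summed to 438 and 240 CPM against 639 to 831 CPM. All 8 were lower, and 1, Nanog, was called (log2 difference -1.38, SE 0.28, adjusted p 0.0334), where 0.674% of all genes were called lower. Without Alyref cross morula 1 or 2, 0% of all genes were called. Of 10 trophectoderm markers 7 were higher and 3 lower, with 0 called. The part of these markers in the difference was not tested.

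**Figure D4:**
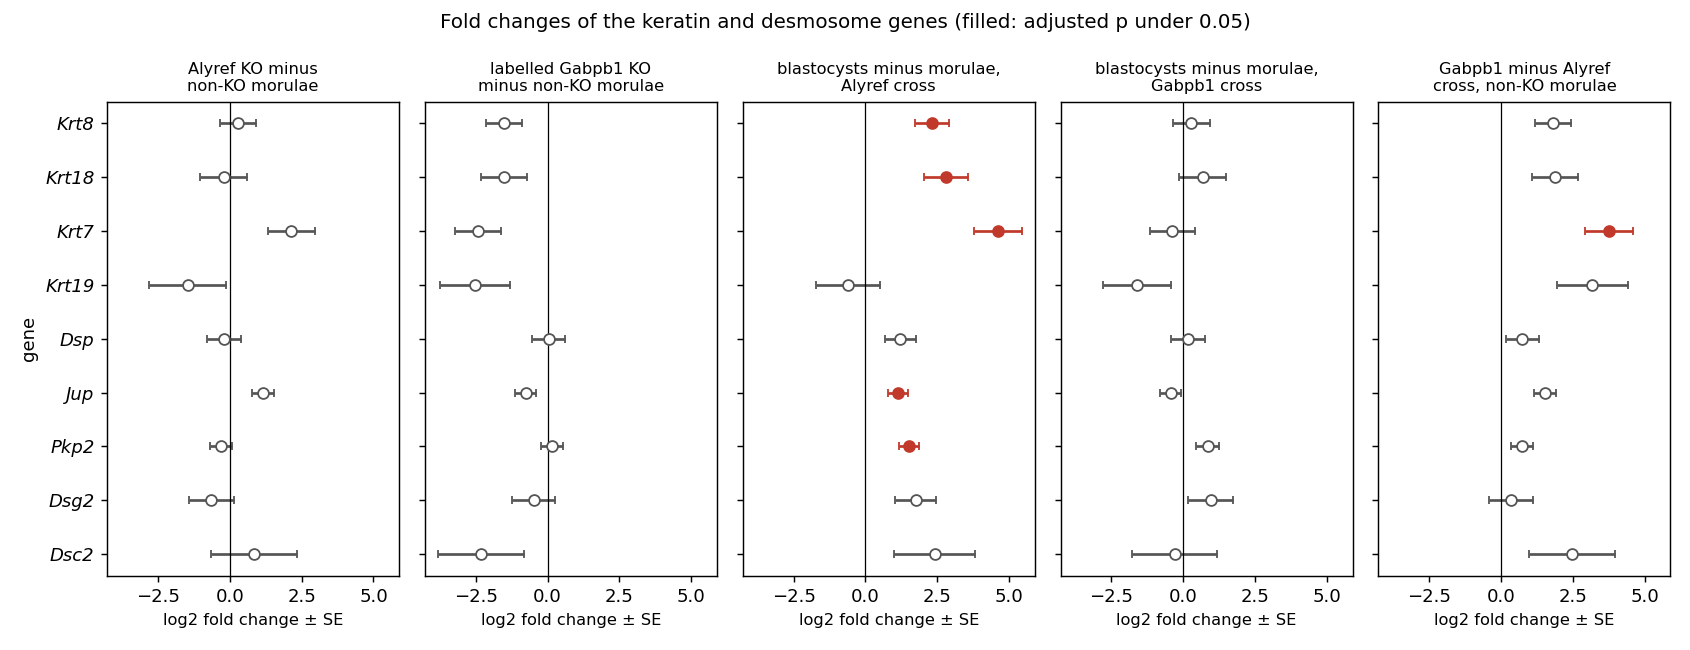
Log2 fold changes with their standard errors for the 9 members in 5 comparisons, filled red where the adjusted p was under 0.05. Filled points appear for Krt8, Krt18, Krt7, Jup and Pkp2 in the Alyref cross stage comparison and for Krt7 between the morulae of the crosses, and no point is filled in either KO comparison.

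Between Alyref KO and Alyref cross morulae, 0 members were called by edgeR or by DESeq2, among 0.228% and 2.35% of all genes. By edgeR, 2 members (Krt7 and Jup) had an unadjusted p under 0.05. These 2 were the members whose KO embryos both lay above all 3 others, as 12.5% of all genes did. Krt7 was at a log2 difference of 2.14 (SE 0.82, adjusted p 0.294) and Jup at 1.15 (SE 0.38, adjusted p 0.219). The log2 differences of Krt8 (0.28, SE 0.63, adjusted p 0.913) and Krt18 (-0.21, SE 0.81, adjusted p 0.958) were smaller than their errors. That of Krt8 ran from -0.49 without Alyref KO morula 1 to 1.31 without Alyref cross morula 3 and was -0.0079 with ERCC scaling, and that of Krt18 ran from -1.22 to 0.71 under the same removals. Without Alyref cross morula 3, Krt7 (adjusted p 0.0392) and Dsc2 (adjusted p 0.0496, against morulae with 2 and 0 counts) were called higher in the KO morulae, among 0.695% of all genes called.

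Between morulae labelled Gabpb1 KO and Gabpb1 cross morulae, 0 members were called by edgeR, with 2 (Krt7 and Krt8) at an unadjusted p under 0.05 and 1.65% of all genes called. DESeq2 called 1, Krt7, among 6.6% of all genes. The log2 differences were -2.41 for Krt7 (SE 0.80, adjusted p 0.130), -1.52 for Krt8 (SE 0.63, adjusted p 0.208) and -1.50 for Krt18 (SE 0.80, adjusted p 0.322). For Krt19 the log2 difference was -2.53 (SE 1.21, adjusted p 0.272), and for Dsc2 it was -2.31 (SE 1.50, adjusted p 0.420). All 3 embryos labelled KO lay below both others for Krt7, Krt8, Krt19 and Dsc2, 4 of 9 members where 16.4% of all genes did so, and the members' median log2 difference was -1.50 beside 0.06 over all genes. Embryo 1 labelled KO was the highest of the 3 in Krt8, Krt18 and Dsc2, and without it Krt18 was called, at -2.93 (adjusted p 0.0417), among 5.25% of all genes called. That embryo also had the largest trophectoderm marker sum of the 3, 534 CPM beside 218 and 347 CPM, in the same order as Krt8 and Krt18. The Gabpb1 cross morulae had sums of 539 and 319 CPM. Gabpb1 cross morula 2 had a smaller sum than embryos 1 and 3 labelled KO but more Krt8 (961 against 766 and 408 CPM). The part of these markers in the keratin levels was not tested.

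The difference between the KO contrasts (labelled Gabpb1 KO minus Alyref KO) was called for 0 members by edgeR, with 2 at an unadjusted p under 0.05 and 0.907% of all genes called. The stage, cross and Alyref KO comparisons share the 3 Alyref cross morulae. The difference was -4.55 for Krt7 (SE 1.15, adjusted p 0.0735) and -1.91 for Jup (SE 0.53, adjusted p 0.0976) on the log2 scale. DESeq2 called both, among 4.45% of all genes. Without Alyref cross morula 3, 4 members were called (Krt7, Krt8, Dsc2 and Jup) among 3.84%.

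Against the blastocysts of their cross, Alyref KO morulae had less Krt18 and Pkp2. These were the 2 members called lower, where 6.07% of all genes were, with log2 fold changes of -3.01 for Krt18 (SE 0.92, adjusted p 0.0431) and -1.82 for Pkp2 (SE 0.41, adjusted p 0.0131). Krt7 (-2.46, SE 0.88), Dsg2 (-2.38, SE 0.84) and Krt8 (-2.04, SE 0.69) had adjusted p of 0.0752, 0.0732 and 0.0615. The call of Krt18 was lost without any 1 of the 5 embryos (adjusted p 0.0625 to 0.267), and that of Pkp2 was lost without either KO morula (adjusted p up to 0.117). Of all genes 13% were called either way in this fit. DESeq2 called 5 members among 18.9% of all genes, the fit with only the compared groups called 7 among 28.3%, and ERCC scaling, with the median of all genes at 0.27, called 0 among 2.86%. Stage and KO label differ together in this comparison and cannot be told apart.

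Between morulae labelled Gabpb1 KO and Gabpb1 cross blastocysts 0 members were called by edgeR, with 3 (Krt7, Krt8 and Krt18) at an unadjusted p under 0.05 and 8.92% of all genes called. DESeq2 called these 3, among 15.8% of all genes. The log2 differences were -2.17 for Krt18 (SE 0.75, adjusted p 0.0780), -2.03 for Krt7 (SE 0.75, adjusted p 0.0937) and -1.80 for Krt8 (SE 0.59, adjusted p 0.0646). Without embryo 1 labelled KO, 4 members were called (Krt8, Krt18, Dsg2 and Pkp2) among 14.7% of all genes. Between the blastocysts of either cross and WT blastocysts, edgeR called 0 members and 0% of all genes, and 0 members had an unadjusted p under 0.05. DESeq2 called 0 members too, among 0.0817% of all genes for the Alyref cross and 0.212% for the Gabpb1 cross.

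The ratio of Krt18 to Krt8, in CPM per kb over CPM per kb, was 2.29 ± 0.223 (SD, n = 3) in Alyref cross blastocysts, 2.37 ± 0.568 (SD, n = 3) in Gabpb1 cross blastocysts and 2.16 ± 0.0842 (SD, n = 3) in WT blastocysts. In morulae it was 1.72 ± 0.113 (SD, n = 3) in the Alyref cross and 1.75 ± 0.0639 (SD, n = 2) in the Gabpb1 cross. The 2 groups of morulae therefore had nearly the same ratio although Krt8 itself was at 363 ± 322 and 1264 ± 429 CPM (SD) in them. Alyref KO morulae had ratios of 1.25 and 0.998, below all Alyref cross embryos. Morulae labelled Gabpb1 KO ran from 0.641 in embryo 2, where the partner Krt18 was scarcer than Krt8, to 2.28 in embryo 1. These ratios were not tested, and a pseudogene of Krt8, described below, makes the level of Krt8 in them uncertain.

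**Figure D5:**
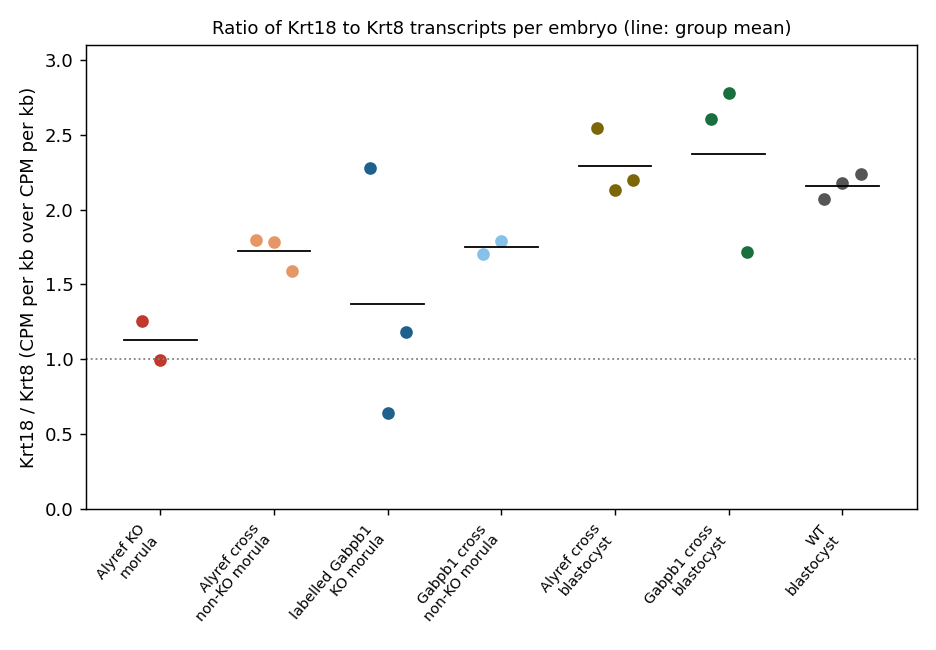
Ratio of Krt18 to Krt8, each in CPM per kb, in every embryo, with the group mean as a line and a dotted line at a ratio of 1. Alyref cross and Gabpb1 cross morulae sit between 1.59 and 1.79, 8 of the 9 blastocysts sit above 2, and embryo 2 labelled Gabpb1 KO is the lowest at 0.641.

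Across the 19 embryos, log2(CPM + 1) of Krt8 and Krt18 had a Pearson r of 0.98, and r was 0.95 over the 10 morulae alone. Krt8 and Dsc2 had r 0.92 over all embryos and 0.92 over the morulae, and Krt18 and Dsg2 had 0.92 and 0.86. Pkp2, in contrast, had r 0.74 with Krt8 over all embryos and 0.43 over the morulae. Krt19 had the weakest relation to the other members, with r between -0.09 and 0.33 over all embryos. These values describe embryos that differ in stage, cross and depth at once.

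By the same measure, genes most like Krt8 among 9338 genes with a mean of at least 10 CPM included its pseudogene Krt8-ps (r 0.99), Plac1 (0.98), Tmprss2 (0.97) and 2310030G06Rik (0.97). Those most like Krt18 included 2310030G06Rik (0.97), Plac1 (0.97), Epcam (0.96) and Txndc16 (0.96). Those most like Dsp were Plec (0.92), Tln2 (0.89), Itga6 (0.89), Ubr4 (0.89) and Ctnna1 (0.88). Plec encodes plectin, a linker of intermediate filaments like desmoplakin, Itga6 an integrin chain, and Ctnna1 alpha-catenin of the adherens junction.

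Krt8-ps is a processed pseudogene with 98.6% identity to Krt8 over 941 aligned bases, and it held between 9.86% and 16.7% as many counts as Krt8 in each embryo. Reads that match both copies cannot be told apart in counts per gene. That share does not bound the reads that Krt8 lost or gained. The level of Krt8, and the ratio of Krt18 to it, are therefore uncertain by an unknown amount. With the counts of both added together, the stage difference of Krt8 in the Alyref cross was 2.31 (SE 0.59, adjusted p 0.0238), and no count of called members changed. The Krt18 copy Gm17847 held 0.0175% of the counts of Krt18. Gm16090 overlaps Dsg2 and Gm10129 overlaps Dsp on the opposite strand, with 0.9% and 0.118% of the members' counts. Without a stated strand setting, reads of such pairs cannot be told apart.

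Of 50 other keratin genes in the table, 4 passed the filter (Krt10, Krt14, Krt23 and Krt27). Krt10, a keratin of suprabasal epidermis, was called lower in morulae labelled Gabpb1 KO than in Gabpb1 cross morulae, at -2.19 on the log2 scale (SE 0.44, adjusted p 0.0256), from group means of 1.51 and 6.93 CPM. The call was lost without embryo 2 or 3 labelled KO or without either Gabpb1 cross morula (adjusted p up to 0.132), with ERCC scaling (adjusted p 0.257) and with only the compared groups (adjusted p 0.322). Against Gabpb1 cross blastocysts it was also lower, at -2.29 (SE 0.41, adjusted p 0.0063), called without any 1 of the 6 embryos but not with ERCC scaling or with only the compared groups. In the stage comparison of the Alyref cross 0 of the 4 were called by edgeR, and 0 had an unadjusted p under 0.05. Of 13 other desmosome and plaque genes 4 were tested, and 0 were called in any comparison by edgeR. In each comparison at most 1 of them had an unadjusted p under 0.05.

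Adherens junction genes, of which 7 were tested, join the actin cytoskeleton to the cell border. In the Alyref cross stage comparison 4 of them were called higher in blastocysts and 0 lower, where 5.62% and 7.43% of all genes were. They were Ctnna1 (0.98, SE 0.23, adjusted p 0.0155), Vcl, encoding vinculin (2.22, SE 0.59, adjusted p 0.0261), Afdn, encoding afadin (1.23, SE 0.33, adjusted p 0.0265), and Cdh1, encoding E-cadherin (1.51, SE 0.40, adjusted p 0.0272), as log2 fold changes. Without morula 2, blastocyst 1 or blastocyst 2 none of these 4 was called, and without morula 1 or blastocyst 3 only Ctnna1 was, with adjusted p up to 0.114 over these fits. ERCC scaling and the fit of only the compared groups ended all 4 calls (adjusted p up to 0.718). Of 10 tested linkers and other intermediate filament genes, Lmna, a nuclear lamin, rose by 1.36 (SE 0.25, adjusted p 0.0078) and was called without any 1 of the 6 embryos. Lmna was also higher in Gabpb1 cross than in Alyref cross morulae, by 1.75 (SE 0.27, adjusted p 0.0222), a call lost without Alyref cross morula 1 or 2 or Gabpb1 cross morula 2 (adjusted p up to 0.173). ERCC scaling and the fit of only the compared groups ended both Lmna calls (adjusted p up to 0.545 and 0.379).

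Among 15 regulators known from simple epithelia, 10 were higher and 5 lower in the Alyref cross stage comparison, with a median log2 difference of 0.89 and 10 at an unadjusted p under 0.05. By adjusted p, 0 were called higher and 3 lower, where 7.43% of all genes were called lower. The log2 fold changes of these 3 were -2.87 for Grhl3 (SE 0.65, adjusted p 0.0151), -2.24 for Ovol2 (SE 0.69, adjusted p 0.0448) and -1.19 for Tfap2c, an AP-2 factor (SE 0.29, adjusted p 0.0184). All 3 calls were lost without morula 2, blastocyst 1 or blastocyst 2, that of Tfap2c also without morula 1 and that of Ovol2 without blastocyst 3, with adjusted p up to 0.468. ERCC scaling and the fit of only the compared groups ended these 3 calls too, and no FPKM filter ended that of Ovol2. The group means of Tfap2c were 89.0 CPM in Alyref cross morulae and 39.0 CPM in Alyref cross blastocysts. Cdx2 and Gata3, trophectoderm regulators whose group means were 10.9 and 72.7 CPM in those morulae and 28.6 and 261 CPM in those blastocysts, were not called.

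Alyref KO morulae, set against the same blastocysts, had 3 adherens junction genes called lower (Vcl, Afdn and Ctnna1, log2 fold changes of -2.81, -1.50 and -0.98) and 0 higher. Of all genes 6.07% were called lower and 6.9% higher there. Among the regulators, Grhl3 (3.04) and Tfap2c (1.13) were called higher and Klf5 (-1.43), Elf5 (-5.25) and Gata3 (-2.52) lower, and Lmna was lower at -1.12. Klf5, Elf5 and Gata3 are transcription factors of the trophectoderm. All of these calls were lost without either KO morula, and ERCC scaling ended each but that of Grhl3. Without Alyref cross blastocyst 1 each was lost but that of Klf5, and without blastocyst 2 each but that of Grhl3. Those of Gata3 and Tfap2c were also lost without blastocyst 3. This comparison shares its blastocysts with the stage comparison of the Alyref cross. Against Gabpb1 cross blastocysts, morulae labelled Gabpb1 KO had Lmna (-1.04), Lmnb1 (-0.92) and Eomes (-3.64) called lower, where 4.97% of all genes were. Without embryo 2 or 3 labelled KO each of these 3 calls was lost (adjusted p up to 0.229). All 3 also ended with ERCC scaling (Lmna at -0.42, Lmnb1 at -0.45, adjusted p up to 0.763) and with only the compared groups (adjusted p up to 0.206), and that of Lmnb1 with no FPKM filter (adjusted p 0.0604). Between KO and other morulae of the Alyref cross, 0 genes of these lists were called by edgeR, and an unadjusted p under 0.05 was found for 1 adherens junction gene. In the Gabpb1 cross stage comparison 0 were called as well, with unadjusted p under 0.05 for 1 regulator and 1 linker. Averaged over both crosses, Lmna was called higher in blastocysts (0.77, SE 0.19, adjusted p 0.0350) and Grhl3 lower (-2.20, SE 0.45, adjusted p 0.0209), and single embryos left out ended these calls in 8 and 5 of 11 fits. The fit of only the compared groups ended both (adjusted p 0.0635 and 0.0502). The Lmna call also ended, at the threshold itself, with no FPKM filter, and with ERCC scaling, where its difference was 0.059 (adjusted p 0.957).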

How the data were processed

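PolyA RNA of 19 single embryos was read in pairs of 50 and 25 bases from Nextera XT libraries made with 16 PCR cycles, with ERCC spike-ins added after lysis, per the labels' protocols. Per the submitters' processing notes the tools were Trimmomatic, Trim Galore, cutadapt, STAR and featureCounts with build mm10. Their versions and the strand setting are not given in the sources used here. The deposited table holds raw counts per gene, although its name announces FPKM, beside a merged exon length (another unit, in bases). The p-values rest on a spread between embryos that was estimated over all 7 groups together, not only the groups compared. Labels do not say which embryos shared parents, and any that did were treated as independent.

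From the counts, 92 ERCC rows were left out of library sizes and tests. Genes with an FPKM of at least 1, computed from the counts and the deposited length, in at least 2 embryos were kept (18410 of 53379). With edgeR 4.0.16 in R 4.3.3, TMM factors and the quasi-likelihood F test were fitted over 7 group means and 12 contrasts, with Benjamini-Hochberg adjustment over all genes tested and a threshold of 0.05. Each SE was derived from the fold change and its F statistic (size over root F). CPM are counts over the gene total times the TMM factor. Alternatives were no FPKM filter (at least 10 counts in all), RLE or ERCC scaling, DESeq2 1.42.0, only the compared groups, a block for the embryo number and each embryo left out. Adding the counts of Krt8-ps to Krt8 was chosen after seeing the data. Deviations of same-numbered embryos had correlations from -0.18 to 0.25. Within the Gabpb1 cross all were positive (0.039 to 0.25), and within the Alyref cross they had either sign (-0.18 to 0.15). Groups this small cannot show by such values whether equal numbers mark embryos that belong together.

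Named were all 9 members, at most 6 called genes a list and comparison, and the 5 genes most like Krt8, Krt18 and Dsp, of which some are not reported here. Members and lists were chosen with earlier results of these data known. The fits were first tested on simulated data for the Alyref cross stage comparison and the label Gabpb1 KO. Of simulated log2 changes of 1, 4.48% and 5.97% were called in these comparisons. Of changes of 2, 59.7% and 49.3% were called, and of changes of 3, 90.9% and 75.8%. A gene that was not called may therefore still differ. In each simulation only 67, 67 and 66 of 18410 genes were changed by 1, 2 and 3, and genes with low expected counts were not chosen. All groups otherwise shared the same mean level per gene. In the data 13% of all genes were called in the Alyref cross stage comparison, so the rates there may differ. Counts came from PCR without molecular identifiers, so counting limits cover counting error only.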

Additional observations from a re-analysis of the deposited data

How the results depend on the processing

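The values below are numbers of the 9 members called. In this paragraph the share of all genes called either way in the same fit stands in brackets. The cause of each change was not tested. For Alyref KO morulae against blastocysts (2 called, 13%), the count was 1 with no FPKM filter (6.03%) and 0 with ERCC scaling (2.86%). It was 7 with only the compared groups (28.3%) and 5 with DESeq2 (18.9%). Between the morulae of the crosses (1 called, 1.86%) the count was 0 with no FPKM filter (0.279%), 2 with RLE scaling (2.05%) and 0 with ERCC scaling (0.0109%). It was 0 with only the compared groups (0%) and 3 with DESeq2 (8.46%). For the Alyref cross stage comparison (5 called, 13%) it was 4 with no FPKM filter (5.91%), 1 with ERCC scaling (1.91%) and 0 with only the compared groups (0.13%). For the mean stage difference (1 called, 4.36%) it was 2 with RLE scaling (4.49%), 0 with ERCC scaling (6.63%), 2 with only the compared groups (2.82%) and 5 with DESeq2 (12.1%). DESeq2 called 1 member for the label Gabpb1 KO (6.6%) and 3 for that label against blastocysts (15.8%). It called 2 for the difference of the KO contrasts (4.45%) and 1 for the difference of the stage contrasts (1.41%). In these 4 comparisons edgeR called 0.

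With the replicate block, 2 members were called between the morulae of the crosses, among 1.78% of all genes. The log2 difference of Krt19 in the Alyref cross stage comparison turned to 0.064. The block changed no other count of members. It ended the calls of Lmna in the mean stage difference (adjusted p 0.0563), of Lmnb1 for the label Gabpb1 KO against blastocysts (0.0666), of Ovol2 in the Alyref cross stage comparison (0.0719) and of Tfap2c for Alyref KO against blastocysts (0.0504). Between the morulae of the crosses it added that of Jup.

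With single embryos left out, the counts ran from 1 to 8 (Alyref cross stage), 0 to 7 (mean stage difference), 0 to 4 (difference of the stage contrasts), 0 to 6 (morulae of the crosses), 0 to 2 (Alyref KO), 0 to 1 (label Gabpb1 KO), 0 to 4 (difference of the KO contrasts), 0 to 1 (Alyref KO against blastocysts) and 0 to 4 (label Gabpb1 KO against blastocysts). The highest of these counts came, in the same order, with 24.8%, 15.9%, 3.81%, 13.2%, 0.695%, 5.25%, 3.84%, up to 6.53% and 14.7% of all genes called either way. With single embryos left out, the sign changed in 31 of 108 pairs of a member and a comparison, and each of the 9 members changed sign in at least 1 comparison. ERCC scaling gave -0.20 for Krt18, -0.65 for Krt8 and -0.090 for Pkp2 in the Gabpb1 cross stage comparison and -0.0079 for Krt8 in the Alyref KO comparison. Single embryos left out gave -1.22 to 0.71 for Krt18 and -0.49 to 1.31 for Krt8 in the Alyref KO comparison, -1.02 to 0.47 for Krt19 in the Alyref cross stage comparison and -0.032 to 0.67 for Krt8 in the Gabpb1 cross stage comparison. Groups of 2 or 3 embryos limit the precision of every comparison.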
